A study of Mus musculus with 12 samples.

Results

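The growth factor receptors of blood cells examined here are Csf1r, Csf3r, Epor, Csf2ra, Csf2rb and Csf2rb2. Their accessible regions were taken from a list of ATAC-seq peaks pooled over blood cell types, as the peaks that have 1 of these 6 genes as nearest promoter. They number 25 of the 84243 peaks of the list. ATAC-seq uses a transposase that inserts sequencing adapters into exposed DNA, and a peak is a stretch where such insertions pile up. The cells came from wild-type C57BL/6 mice aged 8 to 12 weeks and were sorted by surface markers into 6 types, with 2 replicates of each in the 12 samples. Bone marrow gave the hematopoietic stem cells (HSCs), the progenitors of megakaryocytes (MkPs) and of erythroid cells (EPs), the granulocyte/macrophages (GMs) and the B cells, and T cells are labelled as thymus. HSCs and MkPs were gated as cKit+ cells without lineage markers, EPs by CD71 and Ter119, and GMs by Gr1 and Mac1, so the gates fix which blood cells could contribute a peak. The list gives a position, an annotation and a nearest gene for every peak. It has no value per sample and no cell type for a peak, so which cells opened a receptor gene cannot be read from it, the depth behind a peak is unknown, and no comparison between cell types or replicates was made. Counts and positions below are therefore descriptions without a test.

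All 6 genes encode cell surface proteins that read the growth factors of the myeloid and erythroid lineages. Csf1r binds Csf1 and Il34, carries a tyrosine kinase in its own chain and is needed by monocytes and macrophages. Csf3r binds Csf3 and drives neutrophil production, while Epor binds erythropoietin and keeps erythroid progenitors alive. Csf2ra is the chain that recognizes Csf2 (GM-CSF). Csf2rb is the common beta chain that signals for the receptors of Csf2, Il3 and Il5, and Csf2rb2 is a mouse paralog of it that pairs with the Il3 receptor. Apart from Csf1r these chains have no kinase. The receptors they form rely on bound kinases such as Jak2, which pass the signal to Stat proteins. Blood enhancers and promoters of these genes are known to be read by PU.1 and other ETS factors, CEBP, RUNX and GATA factors.

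Of the 6 genes, 5 had a peak at the promoter, but the number of distal peaks varied among them. A promoter peak has its centre within 500 bp of a transcription start site (TSS) in the deposited distances, and every other peak is called distal here. Csf1r had 5 peaks, 1 at the promoter and 4 distal, and Csf3r had the same numbers. Csf2ra had the most peaks, 8, and all 8 were distal. Csf2rb had 1 promoter peak and 3 distal peaks, Epor had 1 of each, and Csf2rb2 had its promoter peak and 0 distal peaks. In all, 5 peaks were at promoters and 20 were distal. A promoter share of 20% (5 of 25, 95% Wilson interval 8.86% to 39.1%) compares with 15.6% over the list. At least 1 promoter peak was present at 5 of the 6 receptors, beside 64.5% of the 19040 genes named in the list.

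The 6 receptors had between 1 and 8 peaks with a median of 4.5, where the median over all genes named was 3, and their numbers fell on both sides of it. Csf2ra had more peaks than 84.2% of the genes named, Csf1r and Csf3r more than 68.2%, and Csf2rb more than 58.8%. Epor had more than 25.4% of them. Csf2rb2 was among the 25.4% of genes with 1 peak. A nearest-promoter count also depends on how much DNA a gene has to itself. The stretch nearer to the gene's TSSs than to those of any other gene was 229 kb for Csf2ra, at the distal end of its chromosome, against 62.3 kb for Csf3r, 36.2 kb for Csf1r, 21.5 kb for Csf2rb, 20.5 kb for Csf2rb2 and 16.7 kb for Epor. Per 100 kb of that stretch the order changed. Csf2rb then led with 18.6 peaks, followed by Csf1r with 13.8 and Epor with 12.0, while Csf3r had 8.03, Csf2rb2 4.88 and Csf2ra 3.49. The median over 18607 genes was 6.52 per 100 kb. Csf2ra had the most peaks of the 6 and, with its stretch taken to the end of the chromosome, the lowest density. Unknown bases, where no peak can be called, were looked for only from the gene to beyond its farthest upstream peak. Any that lie nearer the chromosome end would make the Csf2ra density too low, so its rank among the 6 is not settled.

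**Figure D1:**
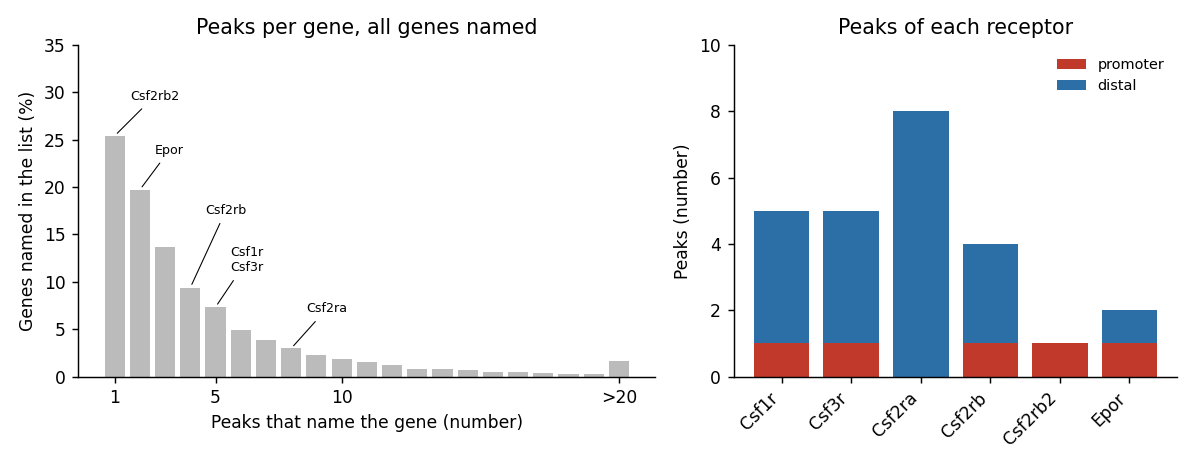
Left, the share of genes named in the list (y axis, %) by the number of peaks that name the gene (x axis), with the 6 receptors marked; right, promoter (red) and distal (blue) peaks of each receptor (number). Csf2ra has 8 distal peaks and no promoter peak, and Csf2rb2 has its promoter peak alone.

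The distal peaks of the receptors lay close to their genes. Their median distance from the TSS was 6993 bp, with a range of 955 to 51475 bp, against a median of 22261 bp over all 71072 distal peaks. Within 10 kb of the TSS were 12 of 20 (60.0%, 95% Wilson interval 38.7% to 78.1%), and the share over all distal peaks was 28.9%. The nearest-promoter rule limits a distance by the stretch a gene has to itself. For Csf1r, Csf2rb, Csf2rb2 and Epor that stretch was below the median of 49.1 kb over all genes with a known stretch. How much of the difference in distance comes from this was not tested. Introns held 8 of the 20 and intergenic DNA 12, or 40% and 60.0%, where the list as a whole had 48.0% and 44.6%. Upstream of the TSS were 12 of the 20, beside 41.7% of all distal peaks. A repeat was the detailed annotation of 4 of the 20 (20%, against 17.9%), 2 of them long terminal repeats near Csf2ra and 2 of them MIR elements near Csf3r and Csf2rb. The median gap to the next peak of any gene was 4938 bp for the 25 peaks and 4599 bp for all peaks.

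**Figure D2:**
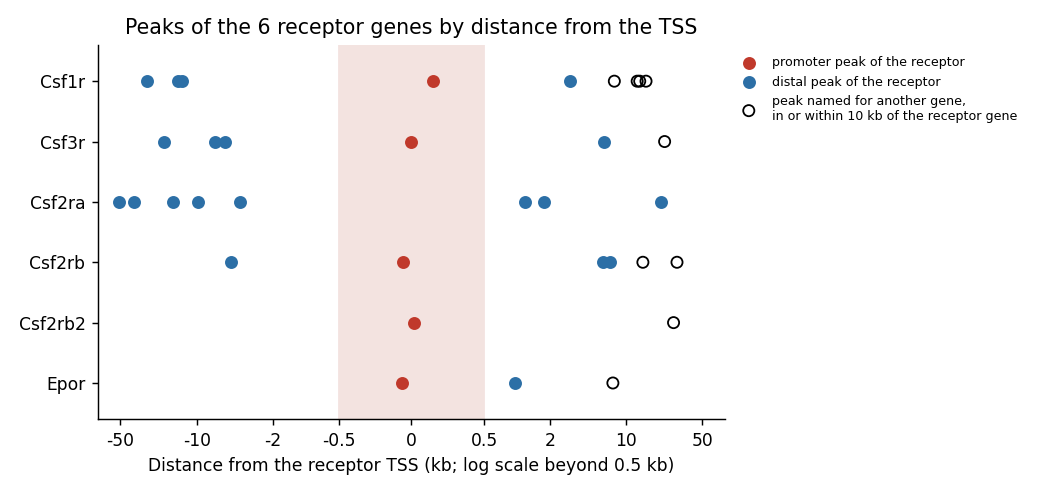
Distance of each peak centre from the TSS of its receptor (x axis, kb, log scale beyond 0.5 kb on either side), with 1 line per receptor; filled circles are the 25 receptor peaks (red promoter, blue distal) and open circles are peaks in or within 10 kb of the gene that name another gene. The shaded band is the promoter window, empty for Csf2ra, and Csf1r has 4 open circles inside its gene.

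Csf1r, the macrophage growth factor receptor, had its promoter peak 150 bp downstream of the TSS, at 61105473 to 61105971 on chromosome 18 of mm10, centred on a simple repeat of TG in intron 1. The fifth peak lay 3069 bp downstream of the TSS, at 61108392 to 61108890, and was annotated to intron 2 of 21. Intron 2 of the RefSeq Select transcript (1 representative transcript per gene) runs from 61105999 to 61109615, and this was the only peak in it. That intron holds the enhancer known as FIRE, which is conserved among mammals and needed for Csf1r expression in several macrophage populations. The gap between the promoter peak and the intronic peak was 2919 bp from centre to centre. The remaining 3 peaks were upstream. A pair at 14684 and 13524 bp, 1160 bp apart, was intergenic, and the farthest, 28283 bp upstream, was inside intron 15 of 22 of Pdgfrb. Pdgfrb encodes a platelet-derived growth factor receptor of the same kinase family, and its TSS is 60422 bp from that of Csf1r.

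The nearest-promoter rule left out most of the peaks inside Csf1r. The gene was overlapped by 6 peaks, and only the promoter peak and the intron 2 peak carried its name. The other 4 named Mir6983, a microRNA gene within Csf1r. They lay 7785 bp from the Csf1r TSS in intron 6, 12608 and 13302 bp from it in intron 10, and 15193 bp from it in intron 11. Over the 6 receptors, 17 peaks overlapped a gene body, 12 of them named for the receptor and 5 for a microRNA gene. A set of only 1 RefSeq Select TSS per gene leaves these microRNA genes out. It also leaves out the gene named by the next peak upstream of the Csf3r peaks. With that set, Csf1r would be the nearest gene of 9 peaks, Csf3r of 8, Csf2rb of 6 and Csf2rb2 of 2. Csf2ra and Epor would stay at 8 and 2. The order by number of peaks would then put Csf1r first.

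**Figure D3:**
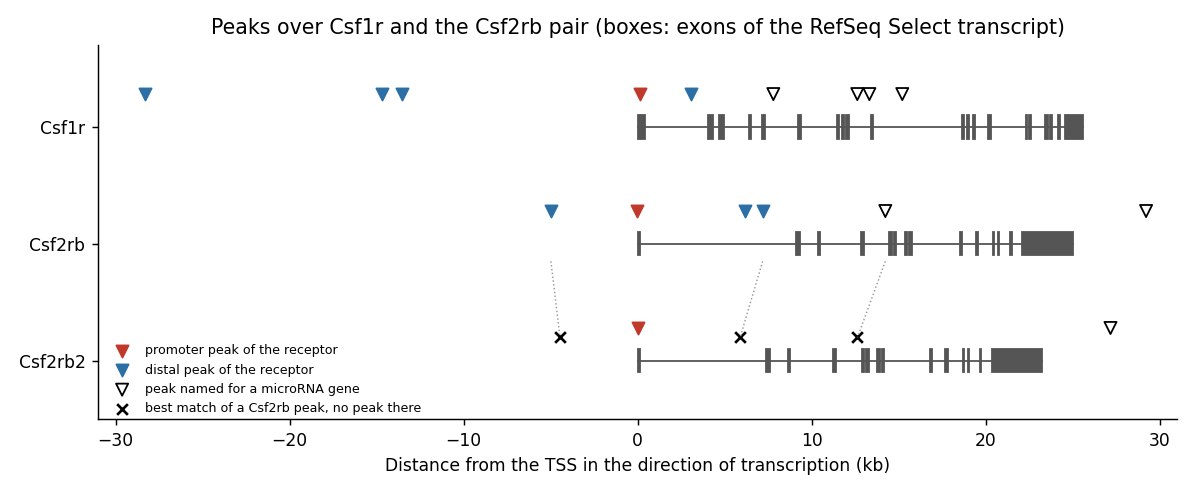
Peaks over Csf1r, Csf2rb and Csf2rb2 by distance from the RefSeq Select TSS in the direction of transcription (x axis, kb); boxes are exons, filled triangles receptor peaks (red promoter, blue distal), open triangles peaks named for a microRNA gene, and crosses the best match in Csf2rb2 of a Csf2rb peak where the list has no peak. Csf1r carries 6 peaks within the gene, and 3 of the Csf2rb peaks have a matching sequence in Csf2rb2 without a peak.

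Csf3r, the granulocyte growth factor receptor, had a promoter peak centred 3 bp from its TSS and a distal peak 6241 bp downstream, in intron 4. Both are shown as 300 bases in the direction of the gene, the promoter from 250 bases before the TSS to 50 after it (RefSeq, GRCm38.p6, chr4:126024409-126024708, plus strand) and the distal peak by its centre (chr4:126030751-126031050, plus strand). Capitals here and in the sequences further on mark matches on either strand to any of 7 strings. These are the PU.1 string GAGGAAGT, the ETS string AGGAAG that lies within it and the CEBP string TTGCNNAA. The others are AGATAA for the factors of the GATA family, TGTGGT for those of the RUNX family, TGANTCA for the AP-1 complex and TTCNNNGAA for the Stat proteins. The pair was chosen because the PU.1 string was in the intronic peak and the promoter held only the ETS string among these.
Csf3r promoter: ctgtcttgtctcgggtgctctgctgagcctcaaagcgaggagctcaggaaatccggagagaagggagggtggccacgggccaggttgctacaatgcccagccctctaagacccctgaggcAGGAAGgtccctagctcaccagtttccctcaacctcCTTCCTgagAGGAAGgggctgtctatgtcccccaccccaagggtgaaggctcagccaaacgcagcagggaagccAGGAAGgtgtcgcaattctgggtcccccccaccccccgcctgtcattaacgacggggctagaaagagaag
Csf3r distal peak: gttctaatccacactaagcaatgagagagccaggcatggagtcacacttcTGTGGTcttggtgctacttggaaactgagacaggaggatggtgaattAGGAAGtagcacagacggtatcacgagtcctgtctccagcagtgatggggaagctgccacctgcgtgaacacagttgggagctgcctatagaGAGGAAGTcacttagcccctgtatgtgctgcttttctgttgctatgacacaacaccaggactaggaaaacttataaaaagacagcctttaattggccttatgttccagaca
The whole promoter peak had 4 ETS strings and 5 matches to the KLF/SP string CCNCNCCC, a GC-box type sequence not capitalized because it is common. The intronic peak had 1 PU.1 string, 2 ETS strings including that one, and 1 RUNX string. Upstream were 3 more peaks, at 5539, 6815 and 19727 bp. The peak at 6815 bp had 3 CEBP strings and 1 GATA string. Of the 25 peaks it had the most CEBP strings, and the peak at 5539 bp, on a MIR repeat, had 1 more. Both lay within the long non-coding RNA gene Gm32908. CEBP factors are known regulators of granulocyte genes. On the other side the nearest TSS was that of Mrps15, a mitochondrial ribosomal protein gene, 22269 bp away, and the peak there named Mrps15.

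Epor, the erythropoietin receptor, had the shortest stretch of the 6 and 2 peaks only 1023 bp apart. The promoter peak was centred 68 bp upstream of the TSS and the distal peak 955 bp downstream, in intron 1 of 7 and on a CpG island. The promoter (chr9:21963527-21963826, minus strand) and the centre of the intronic peak (chr9:21962472-21962771, minus strand) are shown to compare a CpG-poor promoter with a CpG-rich intronic peak.
Epor promoter: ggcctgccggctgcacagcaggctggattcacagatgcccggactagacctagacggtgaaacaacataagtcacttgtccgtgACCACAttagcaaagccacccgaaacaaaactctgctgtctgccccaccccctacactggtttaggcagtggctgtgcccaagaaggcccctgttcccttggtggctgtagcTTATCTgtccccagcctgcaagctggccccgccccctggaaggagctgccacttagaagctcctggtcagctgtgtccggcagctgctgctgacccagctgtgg
Epor distal peak: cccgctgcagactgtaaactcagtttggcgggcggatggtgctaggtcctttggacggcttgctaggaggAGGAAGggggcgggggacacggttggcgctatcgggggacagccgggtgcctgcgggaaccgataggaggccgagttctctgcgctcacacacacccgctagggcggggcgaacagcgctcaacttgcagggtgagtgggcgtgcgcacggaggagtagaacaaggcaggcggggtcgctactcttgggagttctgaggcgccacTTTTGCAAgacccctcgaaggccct
The promoter peak had 1 GATA string, in the opposite orientation (TTATCT as printed), with 1 ETS string, 1 RUNX string and 4 KLF/SP matches, some of them overlapping. GATA1 is the master regulator of erythroid genes and is known to act at the Epor promoter. The intronic peak had no GATA string but 6 KLF/SP matches, 1 ETS string and 1 CEBP string. Its ratio of observed to expected CpG was 0.686, against 0.256 in the promoter peak. In the GENCODE M21 annotation a protein-coding Epor transcript starts 57 bp from the centre of the intronic peak, so that peak is distal by the deposited distances and at a start by that annotation. Beyond the gene the next peak, 7550 bp downstream of the Epor TSS, named the long non-coding gene Gm45914.

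Csf2ra, the ligand-binding chain for GM-CSF, was the receptor without a promoter peak. The nearest peak was centred 1178 bp downstream of its TSS in intron 2, and the next, 571 bp farther on, was 1749 bp from the TSS in intron 4. Both were on the same CpG island. The gene is short, 4017 bp, so these peaks were well inside it. The centre of the first (chr19:61227091-61227390, minus strand) is shown because it is the closest open region to a start without a peak.
Csf2ra distal peak: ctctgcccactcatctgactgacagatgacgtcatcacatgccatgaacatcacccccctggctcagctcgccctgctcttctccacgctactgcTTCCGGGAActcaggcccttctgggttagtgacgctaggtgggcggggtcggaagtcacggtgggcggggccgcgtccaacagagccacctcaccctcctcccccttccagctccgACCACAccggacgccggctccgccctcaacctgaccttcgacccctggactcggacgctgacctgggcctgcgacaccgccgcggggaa
It had 1 STAT string and 2 RUNX strings, 1 of them outside the bases printed, and 5 KLF/SP matches. Its ratio of observed to expected CpG was 0.739, and the second peak had 1.16, the highest of the 25. GENCODE M21 places Csf2ra transcript starts 4 and 14 bp from the centres of these peaks, both of a retained-intron type, and a protein-coding start 136 bp from the centre of the first. By those starts both would be promoter peaks. The window of 250 bp on either side of the RefSeq TSS had 64.7% G+C, and all 402 of its windows of 100 bases occurred once in the primary assembly. The 90001 bases from the gene to beyond its farthest upstream peak held 0 unknown bases.

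The other 6 peaks of Csf2ra were intergenic. Upstream were 5, at 4026, 9731, 16459, 37152 and 51475 bp, and 1 was 20809 bp downstream. The peak at 4026 bp overlapped the pseudogene Gm4242, and the peaks at 51475 bp upstream and 20809 bp downstream were on long terminal repeats of the ERVK and ERV1 classes. These regions hold gene models that curated RefSeq transcripts leave out. By the nearest GENCODE M21 start only 3 of the 8 peaks would still name Csf2ra, while Csf1r, Csf3r, Csf2rb, Csf2rb2 and Epor would each keep all of theirs. The peak at 16459 bp upstream was the only Csf2ra peak with the PU.1 string.

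Csf2rb and Csf2rb2, the beta chain genes, lie back to back on chromosome 15, with 20269 bp between their TSSs. Each had a promoter peak, centred 55 bp upstream of the TSS in Csf2rb and 20 bp downstream in Csf2rb2. The promoters (chr15:78325740-78326039, plus strand, and chr15:78305672-78305971, minus strand) are shown because the sequences are much alike and still differ in the exact strings they hold.
Csf2rb promoter: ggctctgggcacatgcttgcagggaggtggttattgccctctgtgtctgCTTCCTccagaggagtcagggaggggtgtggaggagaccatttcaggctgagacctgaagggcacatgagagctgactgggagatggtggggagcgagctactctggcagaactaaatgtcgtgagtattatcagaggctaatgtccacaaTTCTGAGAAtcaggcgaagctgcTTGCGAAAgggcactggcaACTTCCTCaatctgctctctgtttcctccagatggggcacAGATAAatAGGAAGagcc
Csf2rb2 promoter: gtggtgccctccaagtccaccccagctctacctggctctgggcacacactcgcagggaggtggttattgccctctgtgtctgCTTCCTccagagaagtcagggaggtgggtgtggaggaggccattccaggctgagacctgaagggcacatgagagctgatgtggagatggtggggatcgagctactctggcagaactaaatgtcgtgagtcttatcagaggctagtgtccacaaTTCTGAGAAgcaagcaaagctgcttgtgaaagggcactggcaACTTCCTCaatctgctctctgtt
End to end, the promoter peaks were identical in 430 of 546 alignment columns (78.8%), a figure that counts the unpaired ends of peaks centred on different bases. In the best local match the Csf2rb peak was identical to the Csf2rb2 locus in 93.2% of 502 columns. Of the 10 string matches in the Csf2rb promoter peak, 7 stood at the aligned place in Csf2rb2, among them the PU.1 string next to the TSS, the STAT string TTCTGAGAA and all 4 ETS strings. The CEBP string TTGCGAAA, 23 bp upstream of the Csf2rb TSS, was TTGTGAAA in Csf2rb2, and the GATA string 35 bp downstream of the TSS was AAATAA. Counted from 1 at the first base of each string, these are the substitutions C4T and G2A, with the Csf2rb base first. The third was a KLF/SP match in a stretch that could not be aligned without a gap. For GATA only the letters AGATAA were searched. Both printed promoters also hold TTATCA, which reads TGATAA on the other strand and was not counted. The change to AAATAA therefore does not show that Csf2rb2 has no GATA site at its promoter.

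The paralogs differed in distal peaks. Csf2rb had 3 under its own name, 4803 bp upstream and 6178 and 7171 bp downstream in its first intron, and a further peak in intron 4, 14218 bp downstream, named Mir7676-2. Csf2rb2 had no peak in the gene beyond that at its promoter. Much of the DNA under the Csf2rb peaks has a counterpart in Csf2rb2. The upstream peak, 4993 bp from the Select TSS, matched it at 80.2% over 519 columns, centred at -4468 bp from the Csf2rb2 TSS. The peak at 7171 bp, on a MIR repeat, matched at 88.7% over 406 columns in intron 1 of Csf2rb2, 5880 bp from its TSS. The peak in intron 4 matched at 87.2% over 507 columns, 12619 bp from the TSS and almost wholly in intron 4. No peak of the list overlapped any of these 3 matches. The peak at 6178 bp had no counterpart beyond a match of 30 columns. The bases under the Csf2rb upstream peak (chr15:78320848-78321147, plus strand) are shown as an example of a peak with a counterpart without one.
Csf2rb distal peak: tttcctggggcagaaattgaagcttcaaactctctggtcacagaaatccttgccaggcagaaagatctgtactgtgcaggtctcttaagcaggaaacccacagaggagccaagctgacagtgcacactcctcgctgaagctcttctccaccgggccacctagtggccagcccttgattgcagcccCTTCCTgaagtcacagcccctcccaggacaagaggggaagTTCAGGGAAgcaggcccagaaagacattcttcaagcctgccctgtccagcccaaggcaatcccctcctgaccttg
It held 1 ETS string, 1 STAT string, 1 KLF/SP match and, outside the bases printed, 1 RUNX string.

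The authors left out reads that map to several places, so sequence shared by the paralogs was counted. From 5 kb upstream of Csf2rb to its end, 1145 of 29913 windows of 100 bases (3.83%) were also present in the Csf2rb2 region. None of the 400 such windows of any of the 25 receptor peaks, and none of the 402 around any of the 6 TSSs, had another copy in the primary assembly. The intron 4 peak named Mir7676-2 and the 3 matching places in Csf2rb2 were not looked up in this way. Loss of reads that map to several places was therefore not tested there. Whether the 3 places in Csf2rb2 without a peak were accessible at a lower level was not tested, since the list has no signal. Downstream of each gene stood 1 more peak, 29197 bp from the Csf2rb TSS and 27152 bp from the Csf2rb2 TSS, named Mir7676-1 and Mir7676-2. The list thus uses the name Mir7676-2 at both loci, while the RefSeq annotation used here has Mir7676-2 in Csf2rb and Mir7676-1 in Csf2rb2.

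The receptor promoter peaks were poor in CpG. Their ratio of observed to expected CpG had a median of 0.192 and ranged from 0.182 in Csf2rb to 0.297 in Csf3r, and all 5 were below the median of 0.778 over the 13171 promoter peaks of the list. G+C content had a median of 56.3%, against 63.3%. For the distal peaks the CpG ratio had a median of 0.163, with 0.220 over all distal peaks, and G+C content a median of 51.8% beside 47.7%. Only 3 of the 25 peaks had a CpG ratio above that of the Csf3r promoter, and these were the intronic peaks of Epor and Csf2ra on CpG islands. At the TSS of Csf1r the window of 250 bp on either side of the start held no CpG at all and 44.5% G+C. Over 20971 such windows at RefSeq Select starts, 17.6% had a lower ratio than Csf2rb2 and 21.2% a lower one than Csf2rb. The share was 22.9% for Epor, 28.3% for Csf3r and 42.2% for Csf2ra, so only Csf1r was at the lowest end. As background, CpG-poor promoters are common among mammalian genes of restricted expression.

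**Figure D4:**
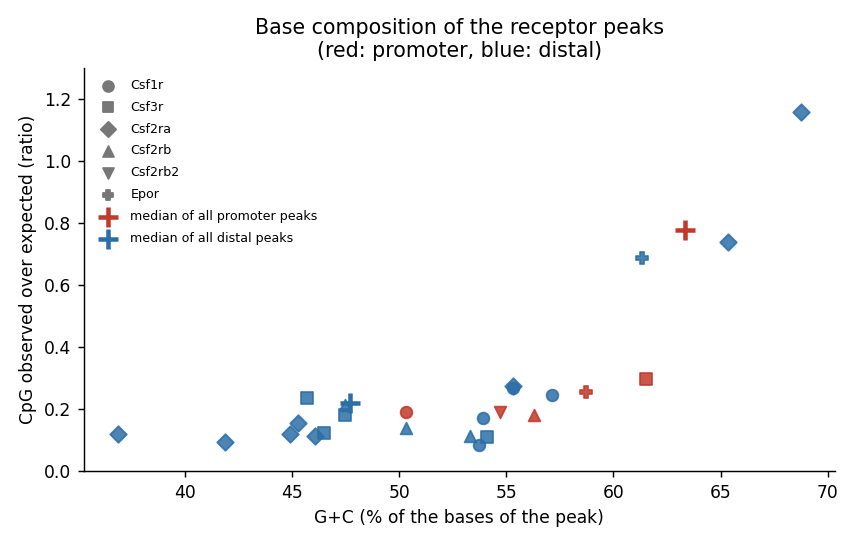
G+C content (x axis, % of the bases of a peak) and ratio of observed to expected CpG (y axis) of the 25 receptor peaks, by receptor (symbol) and kind (red promoter, blue distal); crosses are the medians of all promoter and all distal peaks of the list. The 5 promoter peaks lie between 0.182 and 0.297, below the promoter median of 0.778, and the 3 points above 0.297 are intronic peaks of Epor and Csf2ra.

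Short strings bound by blood transcription factors were counted in whole peaks, on both strands. A string is a match of letters and not a bound site. A peak without a string may still hold other letters that the factor binds, which were not searched. The PU.1 string, read by the factor that directs myeloid and lymphoid fates, was in 2 of 5 promoter peaks (Csf2rb and Csf2rb2) and 4 of 20 distal peaks, beside 4.79% and 10.2% of all promoter and distal peaks. The ETS string was in 5 of 5 and 13 of 20, beside 48.1% and 65.0%. Among distal peaks the ETS count was thus at the background share. The GATA string, for the erythroid and megakaryocyte factors, was in 2 of 5 (Csf2rb and Epor) and 5 of 20, beside 8.66% and 26.9%. The STAT string, for the factors that act downstream of these receptors, was in 2 of 5 (Csf2rb and Csf2rb2) and 3 of 20, beside 9.00% and 15.0%. The promoter peaks of the beta chain genes are one sequence family, so their PU.1 and STAT strings are not separate observations.

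The CEBP string was in 1 of 5 promoter peaks and 3 of 20 distal peaks, beside 11.6% and 20.7%. RUNX factors are needed for the first blood stem cells, and their string was in 2 of 5 and 11 of 20, beside 19.6% and 42.5%. The KLF/SP string was in 4 of 5 and 10 of 20, beside 81.4% and 43.7%, and the exception was the Csf1r promoter. The AP-1 string was in 1 of 5 and 4 of 20, beside 6.80% and 16.9%. With 5 promoter peaks, 1 peak moves a share by 20 percentage points. Of the 8 strings a receptor promoter peak held between 2 and 6 with a median of 4, and a receptor distal peak between 1 and 4 with a median of 3, where the median over the list was 2 for either kind.

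By gene the strings fell differently. Among the peaks named for Csf1r, the PU.1 string was in both peaks of the upstream pair and in no other. The 4 peaks inside the gene that name Mir6983 were not among the 25 counted here. The promoter and intron 2 peaks of Csf1r held the same set of 1 ETS, 1 RUNX and 1 AP-1 string. Neither of those 2 peaks had the PU.1 string, although PU.1 is known to act on Csf1r, and the exact letters searched are narrower than what PU.1 binds. The farthest Csf1r peak, in Pdgfrb, held only the KLF/SP string, in 7 overlapping or neighbouring matches. Among distal peaks the CEBP string was in 2 Csf3r peaks and 1 Epor peak. Csf2rb combined the most strings in 1 peak, with 6 of the 8 at its promoter.

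**Figure D5:**
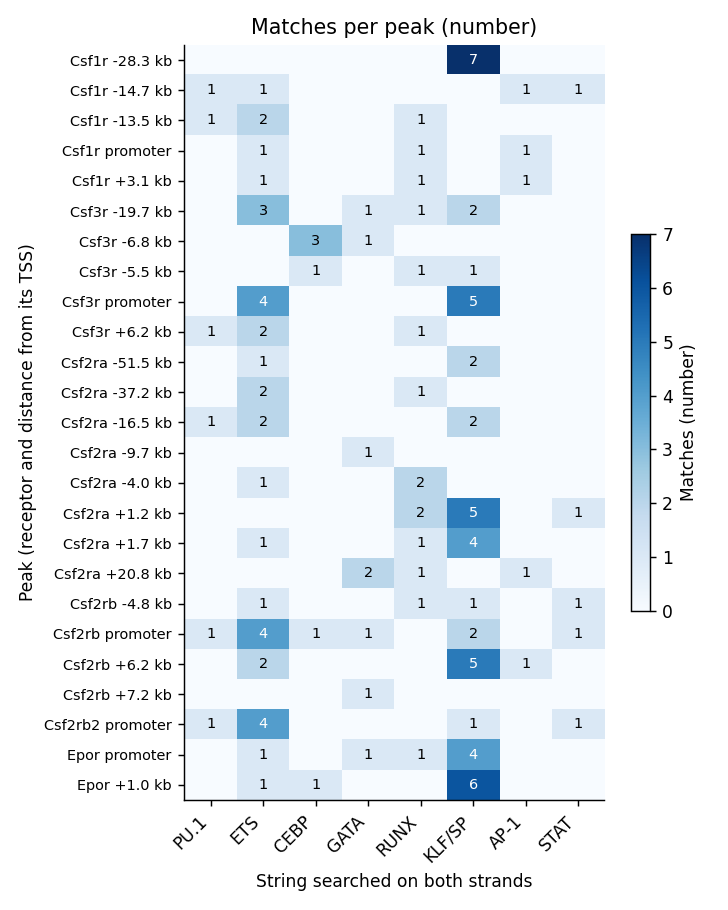
Number of matches to each of 8 strings (columns) in each of the 25 receptor peaks (lines, by receptor and distance from the TSS in kb); darker blue is more matches, and empty cells are 0. The Csf2rb promoter holds 6 of the 8 strings, and the ETS column is filled at all 5 promoter peaks.

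Other genes of the same pathways were counted in the same way. Over all genes named in the list, 64.5% had at least 1 promoter peak. That share leaves out genes named by no peak, while the pathway lists keep them. Of 10 ligand genes, 4 had a promoter peak: Csf1, Il34, Kitl and Flt3l. The nearest peaks of Csf2 and Csf3 were 515 and 1041 bp from a TSS, the first just outside the limit, and those of Il3 and Thpo were 2506 and 5954 bp away. Epo, which is made outside the blood, was named by no peak, and the nearest peak to its TSS was 13278 bp off. Of 4 other blood growth factor receptors, 3 had a promoter peak, namely Kit, Flt3 and Il5ra, and the 4 had 5 to 16 peaks each, the highest in Kit, the stem cell factor receptor. Il3ra, the partner of the beta chains, resembled Csf2ra in that its nearest peak was 734 bp away. Of 8 relatives known mainly outside blood, 5 had a promoter peak, near the share over all genes named, with 0 to 15 peaks each. All 14 signalling genes had a promoter peak, among them Jak2 with 11 peaks in all, Stat5a with 3, Stat5b with 8 and the feedback inhibitors Cish with 5 and Socs1 with 19. The median number of peaks per gene was 2 for ligands, 4.5 for the 6 receptors, 6 for the other blood receptors, 5 for the relatives and 5.5 for signalling genes. Over all genes named it was 3, with genes named by no peak left out.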

How the data were processed

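ATAC-seq was measured in 12 samples, 2 replicates of each of 6 cell types. The authors processed reads on mm10 with the ENCODE ATAC-seq pipeline, without multimapping reads, concatenated the reproducible peaks of each cell type, reduced them to non-overlapping peaks with chromVAR and annotated them with HOMER (4.10.2 in the submitters' processing notes). This pooled list of 84243 peaks, each 499 bp wide, was the sole source of values. The deposited peak score, as the authors left it, was 0 throughout and ranked nothing. Start, end and distance to the TSS were used in bp as deposited. No sample or group entered a test, and no error between replicates exists.

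Gene models and sequence were from NCBI RefSeq release 108 of GRCm38.p6, with GENCODE M21 as a second set of starts. The promoter table covered Csf3r, Csf2ra, Csf2rb2 and Epor, and the Csf2rb promoter was read from the genome. A protein comparison of the beta chains was planned and not run. CpG ratios were the CpG count times length over the product of C and G counts. Alignments used Biopython 1.88 with match 2, mismatch -3, gap opening -5 and extension -2. String search and nearest start were tested on simulated data, and alignment was not. Intervals are 95% Wilson intervals and cover counting error only. They treat peaks or alignment columns as independent. Peaks of the same gene share a locus, so the intervals on peaks may be too narrow. Named were the 6 receptors, genes of the pathway lists, genes next to a receptor, genes holding a receptor peak, and, chosen after their values were seen, genes that a peak in or near a receptor named. The members and lists were chosen with earlier results of these data known. The text names some genes of each list as examples, and 1 further gene was left out of the lists and their counts and is not reported here. The work was done in Python 3.11.15 with pandas 2.3.3, scipy 1.17.1 and matplotlib 3.10.9.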

Additional observations from a re-analysis of the deposited data

How the results depend on the processing

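Of 21 alternatives tried over 7 results, 17 left the value within 1.5 times, or within its interval, and 4 did not. A limit of 100 kb could not change a count, as the farthest receptor peak was 51475 bp from its TSS. Basal plus extension domains (2 kb upstream, 1 kb downstream, up to 1 Mb) gave the receptors 51 peaks in place of 25, as each domain runs to the basal region of the next gene. Counting promoter peaks at GENCODE M21 starts, chosen after seeing the data, gave 8 in place of 5. Extending the genes by 10 kb gave 26 overlapping peaks in place of 17, and 1 mismatch in the longer strings gave 136 pairs of peak and string in place of 72 of 200. The Csf1r intron 2 peak was found by annotation, by its centre and by overlap. All of these used the intron of the same transcript, so they are not separate checks. The likeness of the beta chain promoters was 75.9% in 300 bp around each TSS. No paired analysis was possible because the list holds no value per sample. Without depth or signal, a place without a peak is not shown to be closed.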
